A study of Mus musculus with 18 samples.

Results

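Open chromatin was mapped by ATAC-seq, in which the transposase Tn5 inserts sequencing adapters into accessible DNA, in naive CD4 T (TN) cells of untreated, wild-type C57BL6/J mice. Cells of mesenteric lymph nodes (mLN), spleen and axillary lymph nodes were sorted into a high and a low fraction by Nr4a1-dsGFP, a reporter of the TCR-induced gene Nr4a1, whose level is used to grade tonic TCR stimulation (TTS). The 6 groups were mLN high, mLN low, spleen high, spleen low, axillary high and axillary low, each with 3 libraries labelled as biological replicates, so that 18 peak lists were compared. The labels do not say whether replicates came from separate animals, and the spread between them may in part be technical. Over the regions found in all 18 libraries, reads at the summit differed less between mLN high libraries (mean chi-square per region 0.512 to 0.533 for the 3 pairs) than between libraries of the other groups (0.547 to 0.636 for 15 same-group pairs), and the part of this in the calls in 3 of 3 libraries was not tested. All groups carried the reporter as a sorting marker; the genotype label reads WT throughout, and no source used here describes the reporter's construct or the animals' age.

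The regions described are those open in mLN high cells and rarely elsewhere. Peaks sharing at least 1 bp were merged over the 18 lists into 33115 regions on chromosomes 1 to 19 and X. A region was counted as gained when it had a peak in 3 of 3 mLN high libraries, in at most 1 of 3 mLN low libraries and in at most 3 of all 15 other libraries. The rule found 1074 regions, 3.24% of all regions. Without the limit on the other organs, 2636 regions (7.96%) had a peak in 3 of 3 mLN high and at most 1 of 3 mLN low libraries. "Gained" here refers to peak calls: the presence of a peak chose these regions, so their presence, fold and p-values are given as a description and were not tested.

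Mature T cells that have not met antigen receive weak TCR signals from self-peptide on MHC molecules. Such tonic signals raise Nr4a1 without driving the cell into division, and quiescence of naive cells is kept by factors of the Foxo, Klf and Foxp families. Regulatory DNA away from promoters carries most of the differences in open chromatin between states of one cell type, while promoters of broadly used genes tend to be open throughout. In mesenteric nodes, which drain the gut, retinoic acid and TGF-β are known to shape T cell state.

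A few gained regions lie on DNA whose sequence could be read from RefSeq tables (GRCm38.p6), and these are shown to tie the peaks to the transcript concerned. The region chr11:75173351-75173894 spans the hairpins of Mir212 and Mir132, a pair of microRNAs encoded next to each other on the plus strand. Their 3p arms share one seed, bases 2 to 8, printed in capitals.
mmu-miR-212-3p: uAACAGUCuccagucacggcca
mmu-miR-132-3p: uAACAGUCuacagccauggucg
The fold over local background at this region was 8.48, 5.50 and 8.90 in the 3 mLN high libraries. A peak was also called in 3 of the 15 other libraries, none of them mLN low.

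Promoter windows run from 250 bases before to 50 bases after a gene's annotated start and are written 5′ to 3′ on the gene's strand. Runx3 and Tnfrsf4 are the genes of the T cell lists whose promoter window was overlapped by a gained region at the annotated start, and Sult2b1 is shown for the AP-1 letters in its window. Capitals mark the letters of a motif found on either strand: TGANTCA (AP-1), CCGGAAG and CAGGAAG (ETS), TGTGGT (RUNX), GGGCGGG (KLF/SP), TGGAAA (NFAT), TCAAAG (TCF/LEF), AAAGGTCA (NR4A), GCGTGGGCG (EGR) and the NF-kB motif. A match is a run of letters and not a bound site.
Runx3 (chr4:135152295-135152594, plus strand): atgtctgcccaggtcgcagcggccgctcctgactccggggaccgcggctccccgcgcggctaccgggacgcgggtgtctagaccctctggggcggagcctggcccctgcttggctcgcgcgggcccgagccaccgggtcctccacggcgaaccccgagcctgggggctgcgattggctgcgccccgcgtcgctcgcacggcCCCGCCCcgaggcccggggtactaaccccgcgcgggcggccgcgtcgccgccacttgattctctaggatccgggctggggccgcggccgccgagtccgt
Tnfrsf4 (chr4:156013445-156013744, plus strand): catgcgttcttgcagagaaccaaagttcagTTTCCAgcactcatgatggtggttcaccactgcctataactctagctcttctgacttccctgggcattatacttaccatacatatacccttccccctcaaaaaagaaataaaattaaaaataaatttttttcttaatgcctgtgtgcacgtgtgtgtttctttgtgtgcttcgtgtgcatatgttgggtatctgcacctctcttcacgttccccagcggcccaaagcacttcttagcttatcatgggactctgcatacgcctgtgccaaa
Sult2b1 (chr7:45742429-45742728, minus strand): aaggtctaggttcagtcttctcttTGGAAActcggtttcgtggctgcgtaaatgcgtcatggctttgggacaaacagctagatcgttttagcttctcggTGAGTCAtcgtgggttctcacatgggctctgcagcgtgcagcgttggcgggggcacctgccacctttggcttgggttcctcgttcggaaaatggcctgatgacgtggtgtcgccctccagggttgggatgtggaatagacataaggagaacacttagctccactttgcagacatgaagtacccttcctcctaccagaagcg
The Runx3 window, one of the gene's starts, was 77.3% G or C and held 1 KLF/SP match, whereas the Tnfrsf4 window was 43.7% G or C and held 1 NFAT match. The Sult2b1 window held 1 NFAT and 1 AP-1 match. The gained regions covered 300 of 300 bases of the Runx3 and Sult2b1 windows and 196 bases of the Tnfrsf4 window. The region at Tnfrsf4 starts at chr4:156013549, so the NFAT match, nearer the window's 5′ end, lies outside it.

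The length and depth of the lists bear on every count of gained regions. The mLN high lists were the longest, with 22885 to 23129 peaks, against 17203 to 17490 in mLN low and 14372 to 18008 in the spleen and axillary lists. Their depth was also the highest: the genome-wide background recovered from the deposited folds was 16.5 to 16.6 reads per 10 kb in mLN high, against 11.7 to 12.6 in mLN low and 8.48 to 14.4 in the other organs. The width of the narrowest peak, taken as the caller's fragment length, was 163 bp in mLN high, 162 to 172 bp in mLN low and 161 to 236 bp in the other organs. The scaling to equal depth matched the genome-wide background only, not this length. With every library scaled to the shallowest depth, the rule found 609 gained regions, and 539 of the 1074 overlapped one of them. With each list cut to its 14372 strongest peaks, it found 96, and 36 of the 1074 overlapped one of them. This cut kept mLN high peaks only from a −log10 p of 12.05 to 12.17 upward, depending on the replicate. The other lists kept peaks from 5.03 to 9.40 upward, so equal length asks more of mLN high peaks.

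Placing each other group in turn in the position of mLN high gave far fewer regions from the lists as deposited. The same rule found 32 in mLN low, 107 in spleen high, 28 in spleen low, 13 in axillary high and 6 in axillary low. At equal depth the counts were 609 in mLN high, 53 in mLN low, 95 in spleen high, 31 in spleen low, 26 in axillary high and 11 in axillary low. At equal list length they were 96, 51, 79, 39, 61 and 72 in the same order. How far the gained set rests on list length and depth and how far on the cells cannot be told apart in these files.

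**Figure D1:**
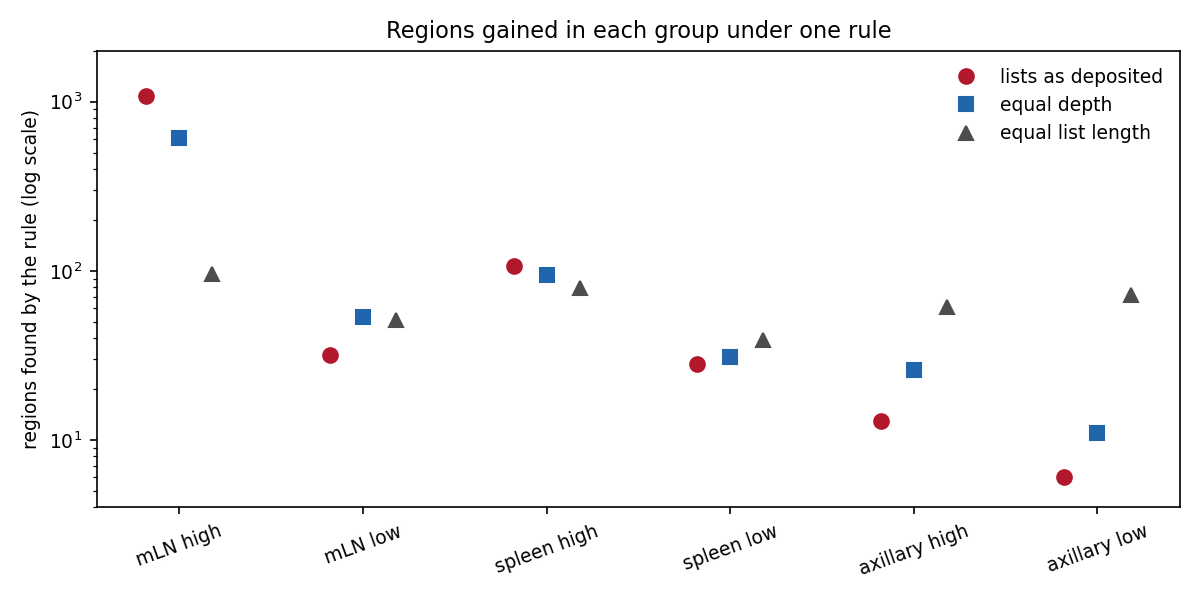
Number of regions found by the rule (vertical axis, log scale) when each of the 6 groups takes the position of mLN high, from the lists as deposited (circles), at equal depth (squares) and at equal list length (triangles). The mLN high count is 1074 from the deposited lists, 609 at equal depth and 96 at equal list length, against at most 107, 95 and 79 in the other groups.

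The labelled cell type was checked against marker genes. Of 13 CD4 T cell marker genes annotated, 12 had a peak within the gene or 1 kb of it in 3 of 3 mLN high libraries and 10 in 3 of 3 mLN low libraries, and Zbtb7b lacked one in mLN high. Of B cell markers 2 of 10 had such a peak in both fractions (Cr2 and Ebf1 in mLN high), with none at Ms4a1, Cd79a, Cd79b or Pax5. Among myeloid markers it was 1 of 11 in mLN high (Spi1) and 0 of 11 in mLN low, with none at Lyz2, Csf1r or Itgam. Erythroid markers had 3 of 8 in mLN high and 2 of 8 in mLN low, dendritic markers 3 of 8 in both, NK markers 1 of 7 in both, CD8 markers 3 of 5 against 2 of 5, and stromal markers 2 of 11 in both. At the reporter's own gene, Nr4a1, 2 regions (chr15:101250275-101250852 and chr15:101256069-101256399) had peaks in 3 of 3 mLN high and 0 of 3 mLN low libraries; with peaks in 13 and 7 of all 18 libraries, neither is a gained region.

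Ranked by the lowest of the 3 mLN high −log10 p-values that the peak caller gave, the first was chr16:10665230-10665765, within Clec16a, a gene of autophagy and immune disease risk. Its fold over local background was 8.05, 7.90 and 7.73 in the mLN high libraries. In the 3 other libraries with a peak, 2 axillary high and 1 axillary low, it was 5.99, 6.14 and 5.39. All 3 mLN high values therefore lay above the other values, with no peak in mLN low or spleen. The fold holds a pseudocount and rises with depth, which was highest in mLN high. Comparisons of fold between libraries, here and below, were not adjusted for depth. They hold only libraries with a called peak, since a library without one has no fold. Statements that groups overlap, or do not, refer to those libraries alone. The nearest annotated start was that of Socs1, a suppressor of cytokine signalling, at 120039 bp.

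The second was chr1:94053620-94053956, 1235 bp outside Pdcd1 on the side of its start. This gene encodes the inhibitory receptor PD-1. Fold was 9.12, 8.29 and 7.24 in the mLN high libraries, against 7.67 and 6.21 in 2 spleen high libraries, and no other library had a peak. Of the spleen values 7.67 lies within the mLN high range and 6.21 below it, and every library with a peak there was from a high fraction. Of 6 regions assigned to Pdcd1, 5 had a peak in 3 of 3 mLN high libraries and 3 were in all 18 libraries.

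Runx3, a factor of CD8 and Th1 cell fate, had a pair of gained regions. One, chr4:135066825-135067125, lay 53670 bp outside the gene with a fold of 9.13, 9.28 and 10.2 in mLN high, against 6.36 in 1 mLN low, 6.89 in 1 spleen high and 7.47 in 1 axillary high library. Here the mLN high values stood clear of the rest. The other, at the promoter shown above, was weaker, at 5.21, 4.21 and 4.50 in mLN high, against 6.06 in 1 mLN low and 6.09 in 1 axillary high library. At that promoter the values outside mLN high were the higher ones.

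Il21r, the receptor for the follicular helper cytokine IL-21, had a region within the gene (chr7:125607409-125607707). Its fold was 6.43, 7.96 and 6.80 in mLN high, against 6.60 in 1 spleen high, 6.20 in 1 spleen low and 7.76 in 1 axillary high library, so the groups overlapped. A region within Acoxl (chr2:128092111-128092402) lay 33782 bp from the start of Bcl2l11, which encodes the death factor Bim. There the fold was 7.59, 7.83 and 8.25 in mLN high, against 6.53 and 7.68 in 2 spleen high libraries. St6gal1, a sialyltransferase, had 8.90, 8.05 and 10.6 in mLN high, against 5.02 in 1 mLN low and 6.40 in 1 spleen high library (chr16:23250610-23251000). Of these 3, only St6gal1 showed no overlap between mLN high and the other libraries with a peak.

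The other 9 of the strongest 15 were nearest to Kif5b (a kinesin), Hsf2bp, Mrrf (mitochondrial translation), Arl6ip5, Pde7b (a phosphodiesterase), Limd1, Rfx7 (a factor of lymphocyte quiescence), Pcm1 (centriolar satellites) and Atxn1. The highest mean fold of the 15 was at Mrrf, 10.3 ± 2.08 (SD, n = 3), and the lowest at Il21r, 7.07 ± 0.80. Of the 15, 5 had a peak in 1 mLN low library: those near Kif5b, Runx3, Hsf2bp, St6gal1 and Pcm1.

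**Figure D2:**
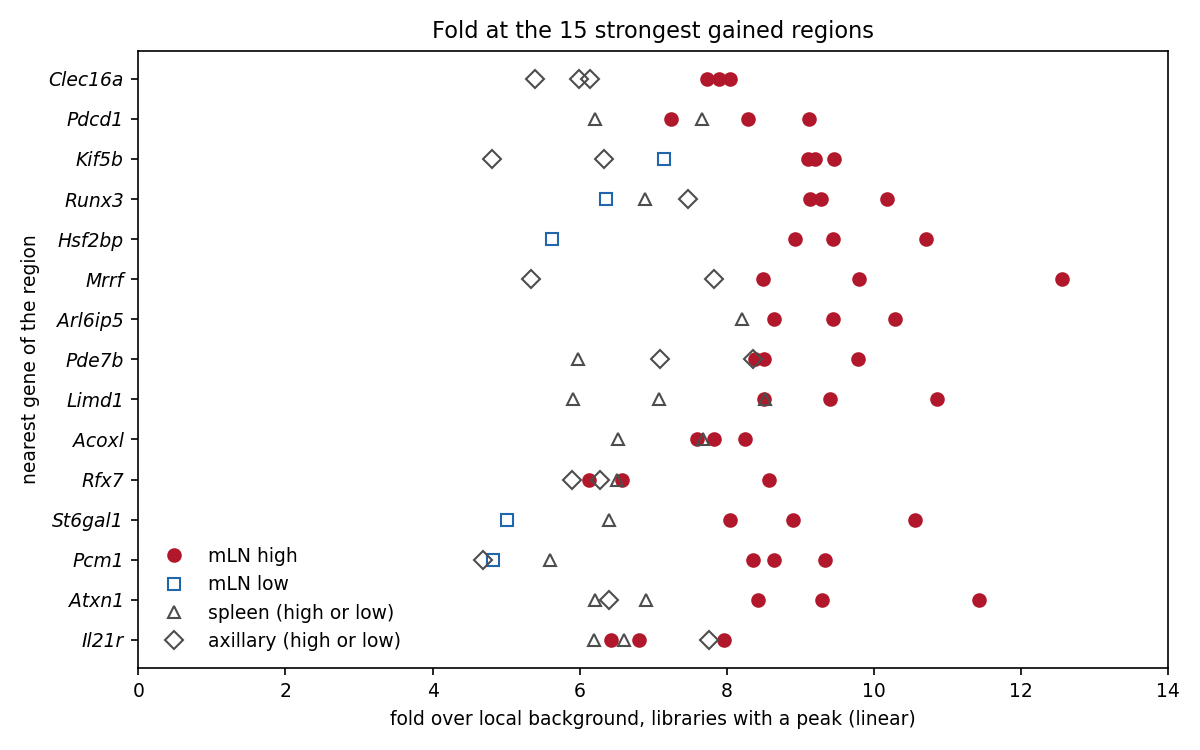
Fold over local background (horizontal axis, linear) at the 15 strongest gained regions, named by nearest gene, for each library with a peak: mLN high (filled circles), mLN low (squares), spleen (triangles) and axillary (diamonds). Libraries without a peak have no value; at Rfx7 and Il21r the mLN high values overlap those of other libraries, and at Pcm1 and Clec16a they do not.

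Across all 1074, the gained regions were modest peaks. The fold averaged over the 3 mLN high libraries had a median of 6.48 and ran from 3.15 to 10.3, with a median SD of 0.897 between libraries. In mLN high replicate 1 the median fold was 6.40 at the gained regions, against 9.14 at all 17595 regions with a peak in 3 of 3 mLN high libraries and 11.4 at the 8756 regions found in all 18 libraries. Replicate by replicate, a gained region stood at percentile 24.1 (median) among its library's peaks by −log10 p, and 18 of 1074 averaged percentile 50 or more. The median width of the merged region was 352 bp, against 425 bp over all regions. It was 214 bp over the 4301 regions with at most 3 peaks outside mLN high and none within it. Merging more peaks can only widen a region, so these widths differ in part by construction. In mLN high replicate 1 the median peak width was 224 bp at gained regions. It was 405 bp at all regions with a peak in 3 of 3 mLN high libraries. The 3 mLN high summits fell within a median of 85 bp of each other.

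**Figure D3:**
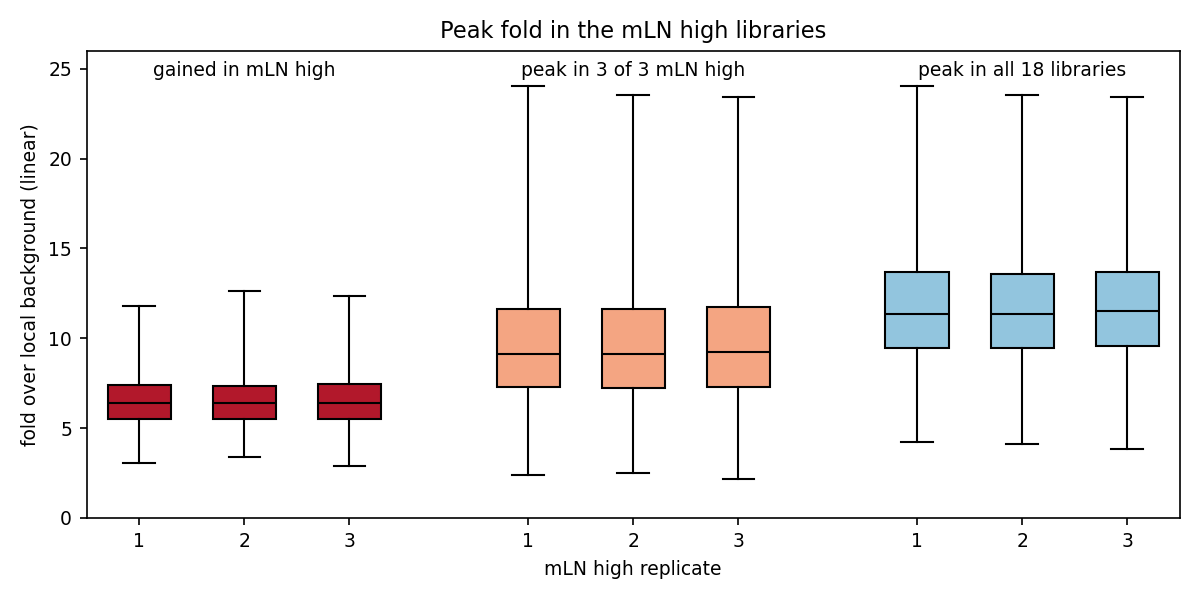
Fold over local background (vertical axis, linear) in the 3 mLN high libraries for the 1074 gained regions, the 17595 regions with a peak in 3 of 3 mLN high libraries (which include them) and the 8756 regions in all 18 libraries. Boxes span the quartiles with the median, and whiskers run to the lowest and highest value; the gained medians lie near 6.4 and those of regions in all libraries near 11.4.

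The lowest of the 3 −log10 p-values had a median of 8.07 and a range of 5.01 to 17.2. It was under 6 at 44 regions, at least 8 at 564 and at least 10 at 193. All 193 of those at 10 or more were still gained at equal depth, as were 346 of the 371 between 8 and 10 but 0 of the 466 between 6 and 8 and 0 of the 44 under 6. Equal depth rescaled each peak's own reads and background and reapplied the p-value floor. Staying gained thus largely restates this −log10 p and is no separate evidence for a region. Just inside the rule, 341 regions had a peak in 3 of the 15 other libraries, with a median of 8.475. Just outside it, 339 regions with 4 of 15 had a median of 8.68 and 64 regions with 2 of 3 mLN low libraries had 8.48. The values on the 2 sides of the limit thus lay close together. The strongest to miss by 1 library were near Syne3, Gpat3 and Trim71, with a lowest −log10 p of 15.6, 15.4 and 14.6, and the weakest gained regions were near Epm2aip1, Hspb3 and Morn3, at 5.01 each.

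Few gained regions were restricted to mLN high. Of the 1074, 151 had no peak in any of the 15 other libraries, 275 had 1, 307 had 2 and 341 had 3. The 151 had a median lowest −log10 p of 7.79, below that of the regions seen in 3 others. Named after their values were seen, the strongest of those reported lay 11804 bp from Cd84, a lymphocyte adhesion receptor (8.24, 7.64 and 8.83 fold), and within Pde4d (6.90, 10.4 and 7.10). Others lay 189934 bp from Trib2, within Atxn1, and 27587 bp from Zfp36l2, an mRNA decay factor of quiescent T cells.

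A peak at the gained regions was called in 128, 145 and 133 of 1074 by the mLN low libraries. Spleen high libraries called 166, 169 and 207, spleen low 160, 142 and 66, axillary high 130, 149 and 106, and axillary low 71, 77 and 63. The spleen low library with 66 was also the shallowest of its group, at 9.84 reads per 10 kb. Summed over the 3 libraries of a group, the gained regions had 542 calls in spleen high, 368 in spleen low, 385 in axillary high, 211 in axillary low and 406 in mLN low. The 4301 regions with at most 3 peaks outside mLN high but none within it had 2081, 1295, 729, 500 and 1123 in the same order. At 406 gained regions 1 mLN low library had a peak. The mean mLN high fold there had a median of 6.56 and the mLN low fold one of 5.89; the mLN low value was under all 3 mLN high values at 144 of them and over all 3 at 68.

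**Figure D4:**
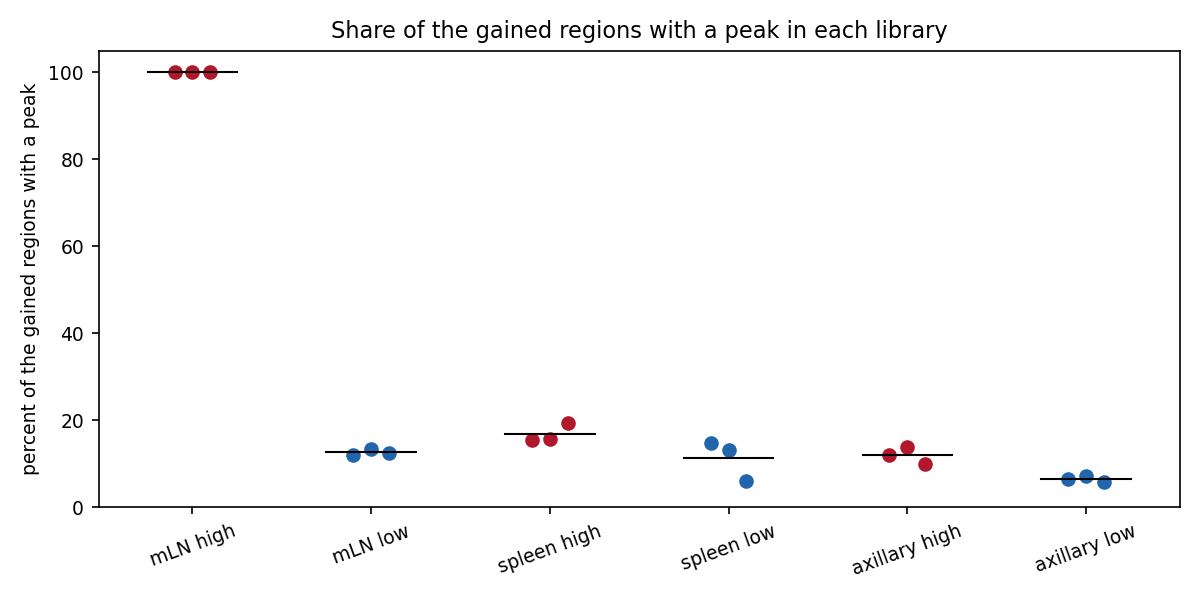
Percent of the 1074 gained regions with a peak (vertical axis) in each library, with points for the 3 replicates and a line at their mean; high fractions are red and low fractions blue. The mLN high value is 100% by the rule, the mLN low libraries lie between 11.9% and 13.5%, and spleen high reaches 19.3%.

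Outside mLN, 224 gained regions had no peak in the 12 spleen and axillary libraries, 374 had one in high fractions only, 188 in low fractions only and 288 in both. Of the 850 with such a peak, 44.0% had it in high fractions only, 22.1% in low fractions only and 33.9% in both. The 4301 regions with at most 3 peaks outside mLN high and none within it had fewer outside peaks per region. Of those, 3640 had a spleen or axillary peak, 55.1% in high fractions only, 33.3% in low fractions only and 11.6% in both. A larger share in both leaves less for either fraction alone, so the 2 sets are not like for like. In spleen, 5 gained regions (0.466%) had a peak in 3 of 3 high and at most 1 of 3 low libraries, against 2.12% of all regions; in axillary nodes it was 1 (0.0931%), against 1.91%. In the other direction, more in low, the background was 1.21% in spleen and 1.13% in axillary nodes, with 0 gained regions in each, and 0.239% in mLN. The limit of 3 other libraries keeps these counts low by construction. The 5 in spleen, also named after the fact, lay within Nek6, Rnf41, A1cf and Ssh2 and 749 bp from Spag9, and the axillary one lay within Rtn1.

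Gained regions lay away from gene ends. Of 1074, 174 (16.2%) had their centre within 1 kb of an end of a protein-coding gene, against 30.5% of all regions, 45.9% of regions with a peak in 3 of 3 mLN high libraries and 64.1% of regions in all 18. A further 322 lay 1 to 10 kb away, 495 (46.1%) 10 to 100 kb and 83 beyond 100 kb. Gene bodies held 616 (57.4%), close to the 59.5% of all regions. The share within 1 kb was 14.6% at equal depth, against 31.8% of all regions, and 8.33% at equal list length, against 35.3%. The median distance was 11640.5 bp for gained regions and 8142 bp for all regions. It was 16389 bp for the 4301 regions with at most 3 peaks outside mLN high and none within it. Of those, 10.9% lay within 1 kb of a gene end.

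**Figure D5:**
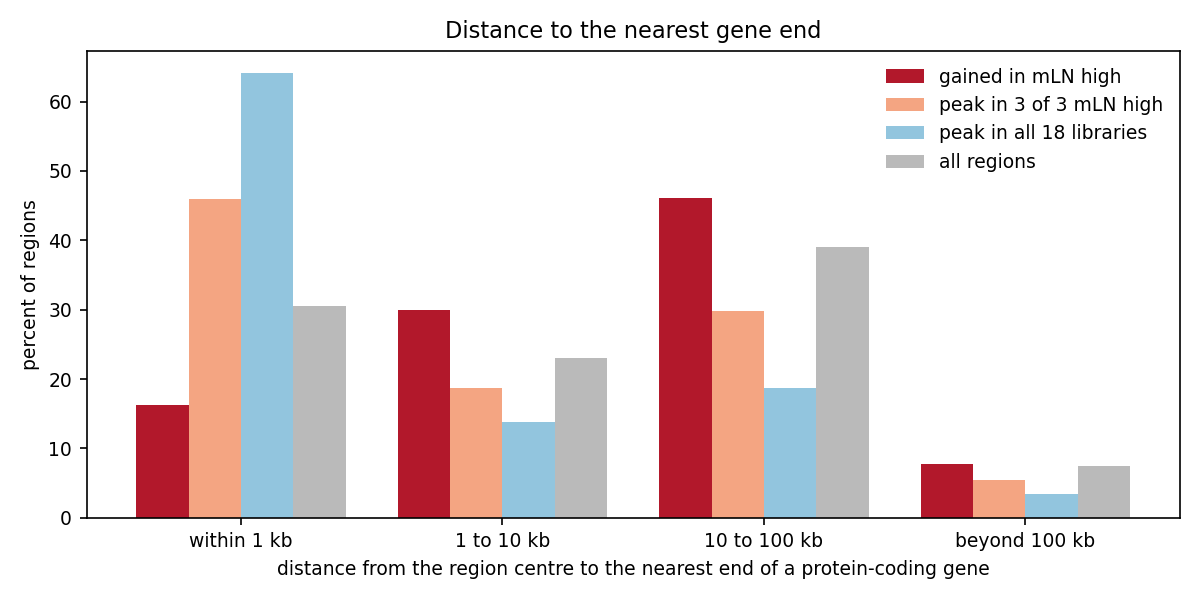
Percent of regions (vertical axis) by distance from the region centre to the nearest end of a protein-coding gene, for gained regions, regions with a peak in 3 of 3 mLN high libraries, regions in all 18 libraries and all regions. Within 1 kb lay 16.2% of gained regions, against 64.1% of regions in all 18 libraries, and 46.1% of gained regions lay 10 to 100 kb away.

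A promoter window of a protein-coding gene was overlapped by 99 of 1054 gained regions on chromosomes with windows (9.39%), against 24.9% of all regions. It was 5.01% for regions with at most 3 peaks outside mLN high and none within it. The strongest, named after their values were seen, were at Myo7a (a myosin, fold 7.72, 9.17 and 8.19), Pabpc4 (a poly(A)-binding protein, 7.82, 7.64 and 7.36), Pitpnm2, Smpd4, Mrpl52, Sult2b1 and Pou2f2, the last a lymphoid octamer factor. Counting windows of genes of every type, non-coding ones included, 124 windows of 113 genes were overlapped. Their G and C content had a median of 62.2%, against 63.0% for windows in regions of all 18 libraries and 53.0% for all 32619 windows. CG pairs numbered a median of 17.5 per 300 bases, against 24 and 7.

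The AP-1 letters TGANTCA were in 13 of 124 gained windows (10.5%), against 3.47% of windows in regions of all 18 libraries and 7.85% of all windows. ETS letters CCGGAAG were in 14.5%, against 22.5% and 8.92%, and the other ETS letters, CAGGAAG, in 15.3%, against 11.4% and 13.4%. KLF/SP letters were in 47.6%, against 55.0% and 25.7%. RUNX letters stood at 16.1%, against 10.9% and 16.6%. The NR4A element was in 1 window, 0.806%, against 0.699% and 1.52%. These shares are descriptions of 124 windows, and most gained regions lie outside any window read here. A window counted at any length of overlap, only 3 bases at Pop5, and the letters were sought over the whole window. At Epb41l1 the AP-1 letters lie outside the gained region. Some windows also overlap each other, as at Septin4.

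By chromosome, gained regions made up between 1.99% (chromosome 18) and 4.64% (chromosome 19) of all regions, with 4.10% on chromosome 11 and 2.19% on X. Of 1074, 165 lay within 50 kb of another. In 7 places 3 lay within 50 kb of their neighbours. The named gene groups of those places were Ccn6 and Fyn, Kif23 and Paqr5, Jund, Pde4c and Ifi30, Scamp4, Csnk1g2 and Btbd2, Zfp36l2, Bsn, and Rpl11 and Id3. Near Zfp36l2 the 3 regions held 5.92, 4.84 and 7.56 as mean mLN high fold over 42407 bp, among 6 regions in all, 2 of which were in all 18 libraries. Within Bsn, a gene known for its role at synapses, all 3 regions found over 26236 bp were gained, at 6.51, 6.78 and 6.04. The region with the highest local background, 64.1 times the genome-wide level, was chr15:101221694-101221946 by Grasp, 32082 bp from Nr4a1. Reads at its summit numbered 56, 60 and 54 in mLN high, at a fold of only 3.15, 3.39 and 2.91.

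Within 100 kb, 1024 gained regions were assigned to 934 protein-coding genes and 50 to none. Of these genes 851 had 1 gained region, 76 had 2 and 7 had 3: Bsn, Dym, Ets2, Foxp1, Gse1, Lpp and Zfp36l2. Foxp1, which keeps naive T cells quiescent, had 3 of its 31 regions gained, and Ets2, an ETS factor, 3 of 16. Over all genes, 3.25% of assigned regions were gained, which is the value the lists below are set beside. The T cell lists together had 67 of 1537 regions gained (4.36%), at 54 genes. At equal depth 37 of the 67 were still gained, against 539 of all 1074. At equal list length 4 were, those near Pdcd1, Cd28, Id3 and the distal Runx3 region, against 36 of all 1074. Fold exists only for libraries with a called peak, and among these mLN high did not always have the highest value. At 21 of the 67 (31.3%) at least 1 other library had a fold above all 3 mLN high values, against 238 of all 1074 (22.2%), and at 12 of the 67 every other library with a peak was below all 3, against 193 of 1074. At 5 of the 67 no other library had a peak, and at the other 29 the values overlapped.

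Genes of TCR signalling and activation had 10 of 224 regions gained (4.46%). With assignment within 10 kb it was 4 of 154 (2.60%), below the 3.13% over all genes at that distance. The strongest of the 10 was 32395 bp from Cd28, the main co-stimulatory receptor (chr1:60713775-60714212). Its fold was 8.15, 7.80 and 8.91 in mLN high, against 7.50 and 5.46 in 2 axillary low libraries. Every mLN high value was the higher. Fyn, a Src-family kinase downstream of the TCR, had a region within the gene at 6.79, 6.86 and 6.18 in mLN high, against 7.09 in 1 mLN low library, which was above all 3. Another, 76566 bp from Fyn, had 6.43, 5.56 and 7.56 and no peak in any other library. At a region within Cd247, the TCR zeta chain, the fold was 4.15, 4.32 and 4.77 in mLN high, against 5.03 in 1 mLN low library, again above all 3. Others lay at the Tnfrsf4 promoter, which serves the co-stimulatory receptor OX40 (6.37, 5.82 and 6.50), near Lat, an adaptor of the TCR (2 regions), near Irf4, and near Myc, a transcription factor of cell growth (2 regions). One Lat region had 4.83, 7.65 and 5.77 in mLN high, against 8.67 in 1 mLN low, 4.28 in 1 spleen high and 5.92 in 1 axillary high library. At the nearer Myc region the fold was 3.93, 4.21 and 4.09 in mLN high, against 5.18 in 1 mLN low library, which was the higher.

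Negative regulators of the TCR signal had 9 of 187 gained (4.81%), at 8 genes. Beside Pdcd1, the strongest was 2246 bp from Rasa2, a Ras GTPase-activating protein, at 7.79, 7.19 and 9.30 in mLN high, against 5.43 and 5.77 in 2 spleen high libraries. Those values did not overlap. Ubash3b, a phosphatase that acts on TCR-proximal kinases, had 2 regions within the gene, at 6.02, 8.31 and 5.71 and at 5.85, 8.33 and 4.64. The second of these had no peak in any other library, and neither did a region within Sla, an adaptor that lowers TCR levels (6.27, 6.09 and 5.25). Dusp4, a MAP kinase phosphatase, had 6.16, 5.81 and 6.33, a range that held the 6.04 of 1 spleen high library. Nfkbia, Pag1 and Socs3 had 1 region each, with mean folds of 6.05, 5.56 and 4.51. At Pag1 the 6.69 of 1 spleen high, 7.66 of 1 spleen low and 6.62 of 1 axillary high library were above all 3 mLN high values. At Socs3 the 5.97 of 1 spleen high library was too, but 4.14 in 1 mLN low and 4.34 in 1 spleen low library were not. At Nfkbia the 5.83 of 1 spleen high library lay within the mLN high range.

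The naive and quiescence list had the highest share among lists of over 100 regions, 16 of 221 (7.24%), at 11 genes. At equal depth 7 of the 16 were still gained, and at equal list length 0. Within Ets1, a factor of naive T cell survival, the stronger of a pair had 5.28, 4.86 and 6.13 in mLN high, against 4.70 in 1 axillary high library. At the weaker Ets1 region the mLN high values of 4.36, 4.69 and 3.91 lay below the 5.68 and 5.09 of 2 spleen low libraries. The 3 Foxp1 regions averaged 5.86, 6.06 and 6.49 in mLN high. The last of these had 6.93, 6.79 and 5.75 in mLN high, against 7.99 in 1 mLN low library, which was the higher. Lef1, a TCF-family factor, had one region within the gene at 7.39, 5.34 and 7.65 and one 16351 bp away at 6.30, 4.72 and 7.09. Regions were also gained at or near Tob1 and Btg1, both antiproliferative genes, Bcl2, a survival factor, and the regulators Foxo3, Klf2, Klf13 and Satb1. Their mean folds lay between 5.20 at Tob1 and 6.50 at a distal Btg1 region.

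Retinoic acid and TGF-β genes had 8 of 144 gained (5.56%). Tgfbr2, the ligand-binding TGF-β receptor, had 6.80, 7.77 and 8.44 within the gene in mLN high, against 6.62 and 4.75 in 2 axillary high libraries. These values did not overlap. Its co-receptor gene Tgfbr3 had 2 regions, at means of 7.14 and 6.38. Dhrs3, which reduces retinaldehyde, had a mean fold of 7.53 ± 1.45 (SD, n = 3, range 6.41 to 9.17) and no peak in any other library. Rarg, a retinoic acid receptor, had 6.30, 8.82 and 9.88 in mLN high at 5714 bp from the gene, against 6.60 in 1 mLN low, 6.04 in 1 axillary low and a lower value in 1 spleen high library, so that the groups overlapped. Nrip1, a nuclear receptor co-repressor, had 2 regions, 61929 and 67924 bp from the gene, and Smurf1, a ubiquitin ligase of the TGF-β pathway, had 1 within it. Of the 8, 7 were still gained at equal depth.

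T helper and cytokine genes had 7 of 110 gained (6.36%): the Runx3 pair and regions near Id3, Eomes, Il5, Stat4 and Stat6. Id3, an inhibitor of E proteins, had 7.87, 9.30 and 7.91 at 36793 bp in mLN high, against 5.60 in 1 spleen high and 4.88 in 1 axillary high library, with no overlap. Eomes, a T-box factor, had 6.54, 8.02 and 7.39, against 7.37 in 1 spleen high, 6.09 in 1 spleen low and 7.62 in 1 axillary low library, with overlap. Stat4 and Stat6, cytokine signal transducers, had regions near their starts at 4.51, 6.03 and 5.10 and at 5.65, 4.87 and 5.72 in mLN high. The highest values outside mLN high were above these at both, 7.09 in 1 spleen low library at Stat4 and 7.93 in 1 spleen high library at Stat6. The AP-1, NFAT, NF-kB and IRF list had 5 of 160 gained (3.13%), close to the share over all genes: within Bach1 and Bach2, near Irf4 and Irf8, and 186 bp from Jund.

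Other lists had few. Growth and metabolism had 4 of 117 (3.42%), among them regions near Hk2 and Slc3a2. Homing and migration had 2 of 93 (2.15%), at Dock8 and S1pr4. Effector and memory genes had 2 of 98 (2.04%), near Fasl and Gzmb. The regulatory T cell list had 2 of 69 (2.90%), within Ikzf4 and Lrrc32, and the Notch list 2 of 66 (3.03%), within Maml1 and 40478 bp from Hes1. Interferon response genes had 0 of 47 and housekeeping genes 0 of 30. Among marker lists, CD4 T cell genes had 4 of 63 (among them 2 of Lef1 and 1 of Cd2), B cell genes 0 of 7, NK genes 0 of 7, and CD8 genes 3 of 19, through Runx3 and Eomes.

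Marker lists of other cells held few regions. Gained were 1 of 13 myeloid (7.69%), 1 of 5 erythroid (20.0%), 1 of 12 dendritic (8.33%) and 3 of 14 stromal regions (21.4%). These shares were above the 3.25% over all genes, while the B cell and NK lists had 0 of 7 each. Spi1, the myeloid factor PU.1, was the myeloid one, within the gene at 7.83, 7.73 and 7.45 in mLN high. Epor was the erythroid one (6.64, 6.99 and 7.97), Zbtb46 the dendritic one (5.21, 7.45 and 5.82), and Pecam1 (2 regions) and Cdh5 were the stromal ones, 3 of 14. The part of other cell types in these regions was not tested. Defining markers of those types, among them Lyz2, Gata1, Itgax and Col1a1, had no peak in 3 of 3 mLN high libraries.

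Reads at neighbouring regions were compared, because regions in all 18 lists were not chosen by the rule. Of the 1074 gained regions, 647 had such a shared region within 50 kb, 609 distinct ones in all. Their summit reads, recovered from the deposited fold and p-value, were tested with limma over all 8756 shared regions (log2 of scaled reads plus 0.5, Benjamini-Hochberg adjustment, threshold 0.05). None of the 609 was called different between mLN high and mLN low, against 4 of 8756 higher (0.0457%) and 7 lower (0.0799%) over all. Every region tested has a peak in all 18 libraries, so regions without a peak in any library could not enter. At an unadjusted p under 0.05, 43 flanking regions were higher and 26 lower, against 589 (6.73%) and 429 (4.9%) of all shared regions. The median log2 difference, mLN high minus mLN low, was 0.02 at the flanking regions (quartiles −0.12 and 0.17) and 0.0049 at all shared regions, and turned to −0.03 and −0.04 when libraries were scaled by genome background. Dropping the spleen and axillary libraries from the fit called 1 flanking region higher.

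The smallest adjusted p among the 609, named after its value was seen, was at a region in Dock10, a guanine nucleotide exchange factor. Scaled reads were 15.4, 18.4 and 14.3 in mLN high, against 7.88, 7.89 and 10.9 in mLN low, a log2 difference of 0.83 ± 0.18 (SE; limma, adjusted p = 0.0694). The groups did not overlap, and the difference did not pass the threshold.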

How the data were processed

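ATAC-seq peak lists of 18 libraries were used, one per library. Per the submitters' processing notes, tools included Trimmomatic 0.33, Bowtie2, bedtools and MACS with build mm10; versions of the other tools and the peak-calling settings are not stated there. The deposited columns hold, per peak, a fold, −log10 p and −log10 q, a score and a summit offset, all the authors' own values. In the form that recovered the reads, the fold is summit reads over local background with a pseudocount added to both. It therefore rises with depth at the same underlying ratio, and folds were not adjusted for depth. Peak names refer to a blacklist.

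Of 314829 deposited peaks, 314425 on chromosomes 1 to 19 and X were merged with pandas 2.3.3 (Python 3.11.15). Whole-number summit reads were solved from fold and −log10 p; 99.3% of peaks had a single solution within 0.002. These are maxima near peaks, not counts over regions. Genes, promoters and microRNAs came from RefSeq GRCm38.p6, which shares the coordinates of mm10. Promoter windows were read for 79.9% of protein-coding genes, none on chromosome 18. No genome sequence was used, so motifs in the regions themselves were not searched. Limma 3.58.1 (R 4.3.3) fitted 6 group means over 8756 shared regions, tested first on simulated data.

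Named were the 15 strongest gained regions, those assigned to T cell list genes, those nearest the rule's limits and places with 3 within 50 kb. The members and lists were chosen with earlier results of these data known. Some genes are not reported here.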

Additional observations from a re-analysis of the deposited data

How the results depend on the processing

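The number of gained regions, 1074, fell to 609 at equal depth and to 96 at equal list length. It was 1861 to 1933 when 1 mLN high replicate was left out, since the rule then asks for 2 libraries, and 1253 to 1280 when 1 mLN low replicate was. With −log10 p of at least 6 or 8, peaks merged within 100 bp, or presence asked over at least 0.5 of the region, it was between 931 and 1237, but only 562 of the 1074 were shared at 8 or more and 672 under the coverage limit. In alternatives added after the data were seen, it was 1018 with mLN high scaled to the mean mLN low depth and 905 at −log10 p of at least 10, and these sets shared 1018 and 193 regions with the 1074. The share within 1 kb of a gene end was 8.33% at equal list length, and assignment within 10 kb left 43 of the 67 T cell list regions. Those 43 were 3.97% of the 1082 regions then assigned to the T cell lists, against 3.13% over all genes. Replicate numbers did not pair the mLN libraries: correlations of same-numbered deviations were 0.0069, 0.0106 and −0.0065. With a replicate block on number, 2 shared regions were called higher and 4 lower in mLN high, and no flanking one. Over all shared regions the calls were 1 higher and 7 lower when scaled by genome background, 8 and 11 with a pseudocount of 5 reads, 16 and 10 with a mean of at least 30 reads, and 11 and 5 with the 6 mLN libraries, where 1 flanking region was called higher. Leaving out a replicate gave 0 to 4 higher and 0 to 2 lower, and 0 flanking regions. The cause of these shifts was not tested, apart from fewer libraries or peaks entering by construction. A region without a peak has no deposited value, so a weak signal below the caller's threshold cannot be told from none.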
